A study of Mus musculus with 8 samples.

Results

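Gzmb, Gzmk, Prf1, Ifng, Nkg7, Fasl, Pdcd1, Cd69, Cxcr6 and Itgae are 10 genes of cytotoxic, exhausted and tissue-resident lymphocytes, out of 20127 genes listed in the count tables of brains of aged wild-type and Rag1-/- mice. They were read in wild-type T cells, defined as cells with at least 3 unique molecular identifiers (UMIs, each a tag of 1 captured RNA molecule) of Cd3d, Cd3e and Cd3g together. In Rag1-/- brain they were read in natural killer (NK) cells, defined as cells with at least 3 UMIs of Nkg7, Klrb1c and Ncr1 together, and in both genotypes in the remaining cells. The T-cell rule took 406 of 8726 wild-type cells and the NK-cell rule took 199 of 20905 Rag1-/- cells.

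The experiment was droplet single-cell RNA-seq of live cells from gray matter (frontal cortex) and white matter (optic tract, medial lemniscus and corpus callosum), and it asked what aging white matter looks like with and without an adaptive immune system. Wild-type C57BL/6 mice (C57BL/6J in the methods) gave 2 gray and 2 white matter libraries, and Rag1-/- mice gave 1 gray and 3 white matter libraries. All mice were 24-month-old males, the labels give no treatment, and all tissue was dissociated with actinomycin D. Each library pooled tissue: the wild-type pools held 3 mice (batch 1) and 5 mice (batch 2), with gray and white matter taken from the same pool, the first Rag1-/- pool (batch 1 of that genotype, gray and white matter 1) held 2 mice for both tissues, and Rag1-/- white matter 2 and 3 (batch 2) each came from 1 mouse. The labels give the Rag1-/- strain as NOD.129S7(B6)-Rag-1tm1Mom/J, whereas the methods name B6.129S7-Rag1tm1Mom/J mice, and the difference in background was not resolved here. Genotype coincided with experiment, software version and gene list, so these cannot be told apart from the loss of Rag1.

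Cytotoxic T cells and NK cells kill by releasing perforin, which opens the target membrane, together with granzyme proteases, or by displaying Fas ligand. Chronic antigen exposure is known to raise PD-1, an inhibitory receptor, and memory T cells that settle in a tissue typically carry CD69, the chemokine receptor CXCR6 and, in some tissues, the integrin CD103 encoded by Itgae. Rag1 is required to assemble antigen receptors, so Rag1-/- mice lack mature T and B cells while NK cells, which need no rearranged receptor, develop.

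Libraries held 584 to 7631 cells and 4645054 to 57899352 UMIs, and the median depth was 6813 UMIs in T cells and 5908 in NK cells. All 10 T-cell markers were higher in the T cells than in the remaining wild-type cells (summed level 5313 against 5.84 CPM, that is UMIs of the genes in each 1000000 UMIs of the same cells), and all 9 NK-cell markers were higher in the NK cells (5128 against 1039 CPM). The first list includes Cd3d, Cd3e and Cd3g and the second Klrb1c and Ncr1, which the rules use. These genes, and their part of the summed levels, were thus higher by construction. The NK cells also carried more T-cell marker UMIs than the remaining Rag1-/- cells (10 of 10 markers, 1022 against 4.87 CPM), as well as more of 2 of 2 γδ T-cell markers (29.9 against 0.429) and of 3 of 4 markers of other innate lymphoid cells (247 against 16.8), while Cd8b1 and Cd4 were at 0. The part of such cells in the NK-cell values was not tested. Rag1 itself gave 27 UMIs in all wild-type cells and 301 in all Rag1-/- cells, and a 3′ tag can lie outside the deleted stretch, so this count checks nothing. Of the gated cells, 86 of 406 T cells and 41 of 199 NK cells also had at least 3 UMIs of oligodendrocyte or microglia markers, a share that was 4.35% in gray matter 2, 42.3% in white matter 1 and 18.3% in white matter 2 of wild type and 10% to 27.8% in the Rag1-/- libraries. No doublet caller was run, 372 of the 406 T cells also passed the NK-cell rule, and pairs of libraries shared 0 to 15 cell barcodes. Wild-type gray matter 1 held only 3 T cells, all 3 with oligodendrocyte markers, so its T cells entered no test of gene levels. It did enter the comparison of T-cell shares, where its share is 0 once mixed cells are left out. Those 3 cells held 27 UMIs of Nkg7, 5 of Pdcd1, 3 of Cd69 and 2 of Cxcr6, and 0 of the other 6 members.

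To set the genes in their genomic context, promoter sequence was read for the members, 8 of which (all but Cd69 and Itgae) had an entry in the RefSeq table on GRCm38.p6. The 250 bases before the start site of 4 members are shown, namely the cytotoxic genes Gzmb and Prf1 and the chemokine receptor Cxcr6, whose UMIs lay mostly in T and NK cells, and Pdcd1, whose UMIs lay mostly in other cells. They read chr14:56262335-56262584 (minus strand) for Gzmb, chr10:61297586-61297835 (plus) for Prf1, chr9:123806227-123806476 (plus) for Cxcr6 and chr1:94052554-94052803 (minus) for Pdcd1. Capitals mark the letters TGTGGT, the core bound by RUNX factors, or ACCACA, the same core on the other strand.
Gzmb: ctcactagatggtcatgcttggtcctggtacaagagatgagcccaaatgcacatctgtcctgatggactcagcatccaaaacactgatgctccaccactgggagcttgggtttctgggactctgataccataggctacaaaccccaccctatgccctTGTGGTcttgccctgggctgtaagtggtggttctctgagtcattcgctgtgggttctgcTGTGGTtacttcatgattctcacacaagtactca
Prf1: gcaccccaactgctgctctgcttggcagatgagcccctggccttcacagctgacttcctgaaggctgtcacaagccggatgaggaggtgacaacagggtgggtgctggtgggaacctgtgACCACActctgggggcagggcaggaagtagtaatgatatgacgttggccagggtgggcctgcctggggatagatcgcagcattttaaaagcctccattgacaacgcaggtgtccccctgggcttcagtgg
Cxcr6: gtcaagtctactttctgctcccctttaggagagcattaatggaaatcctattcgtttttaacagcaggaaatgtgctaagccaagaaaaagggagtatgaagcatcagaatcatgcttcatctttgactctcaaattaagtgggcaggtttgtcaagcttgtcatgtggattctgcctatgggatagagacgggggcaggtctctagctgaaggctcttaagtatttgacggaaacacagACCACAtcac
Pdcd1: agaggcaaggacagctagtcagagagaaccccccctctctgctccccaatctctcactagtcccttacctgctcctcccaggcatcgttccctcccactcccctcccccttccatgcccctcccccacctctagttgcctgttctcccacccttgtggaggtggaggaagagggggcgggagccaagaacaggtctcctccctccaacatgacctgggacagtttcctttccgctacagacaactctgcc
Gzmb held 2 such matches, 93 and 34 bases before the start, whereas Prf1 held 1 (130 bases before), Cxcr6 held 1 (10 bases before) and Pdcd1 held none. Nkg7 held 1 RUNX match 83 bases before its start and 1 match to the T-box letters TCACACC, which read GGTGTGA when taken from the other strand, 13 bases before it, and Gzmk held 1 T-box match 75 bases before its start. Gzmk held no RUNX match. Ifng and Fasl, whose UMIs also lay mostly in T and NK cells, held neither kind. Whether matches follow where the UMIs lay was not tested. Starts are those of RefSeq, and for Gzmk that start lies well inside the longer span that the mm10 annotation gives the gene. All 10 members are protein coding in the mm10 annotation: Gzmb at chr14:56258838-56262260, Gzmk at chr13:113171608-113225908, Prf1 at chr10:61297833-61304680, Ifng at chr10:118441046-118445892, Nkg7 at chr7:43437073-43438249, Fasl at chr1:161780689-161788495, Pdcd1 at chr1:94038305-94052553, Cd69 at chr6:129267325-129275436, Cxcr6 at chr9:123806475-123811760 and Itgae at chr11:73090583-73147446. Of 32851 promoters of the same length, 14% held the RUNX letters and 3.33% the T-box letters, so a match is a description of these windows and not a site.

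The first question was where T cells lay. In wild-type brain, T cells made up 0.514% of the cells of gray matter 1 (3 of 584), 1.25% of gray matter 2 (23 of 1845), 5.57% of white matter 1 (52 of 934) and 6.12% of white matter 2 (328 of 5363). Both white matter libraries lay above both gray matter libraries, with means of 5.84% and 0.88%, a difference of 4.96 percentage points and a ratio of 6.64 (exact permutation test, two-sided, p = 0.333, the smallest that 2 against 2 libraries allow). The ratio was 11.4 without gray matter 2 and 4.69 without gray matter 1. In Rag1-/- brain, NK cells made up 0.42% of gray matter 1 and 1.06%, 1.02% and 1.1% of white matter 1, 2 and 3.

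Gzmb, the granzyme that starts apoptosis in target cells, was found in a smaller share of T cells than of NK cells. In T cells it reached 82.9 CPM in gray matter 2, 104 in white matter 1 and 142 in white matter 2, with 0 UMIs in the 3 T cells of gray matter 1. In NK cells it reached 671 in gray matter 1, followed by 653, 718 and 612 in white matter 1, 2 and 3. The T-cell and NK-cell libraries did not overlap. A UMI of Gzmb was present in 109 of 406 T cells (26.8%) and 124 of 199 NK cells (62.3%), or 22.1% and 59.7% once each cell had been thinned to 4049 UMIs, which left out 28 T cells and 33 NK cells below that depth. Only 0.15% of wild-type and 0.0107% of Rag1-/- oligodendrocytes, which should lack the gene and had median depths of 10527 and 9696 UMIs, held a UMI. The T-cell signal was uneven: the 40 T cells with the most Gzmb held 72.1% of its 452 UMIs, with up to 20 in 1 cell.

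Gzmk, a granzyme of memory and effector-memory cells with weak killing activity, was carried by more T cells than Gzmb. Its level was 138 CPM in gray matter 2, 257 in white matter 1 and 204 in white matter 2, with a UMI in 248 of 406 T cells (61.1%, 48% at the thinned depth). Its UMIs were spread more evenly, with 38.1% in the top 40 cells. The authors kept genes found in at least 3 cells, and Gzmk is not listed for Rag1-/- cells. It thus had no NK-cell value to set beside that of T cells, and why it is unlisted was not tested.

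Prf1, which encodes perforin, followed Gzmb in being lower in T cells than in NK cells. T cells held 59.9 CPM in gray matter 2, 82.7 in white matter 1 and 57.2 in white matter 2, against 444 in NK cells of gray matter 1 and 201, 428 and 342 in white matter 1, 2 and 3. Every NK library lay above every T-cell library. The shares of cells with a UMI were 35.7% in T cells and 59.3% in NK cells (22.1% and 48.9% at the thinned depth).

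Nkg7, a membrane protein of cytotoxic granules, was detected in nearly all gated cells, namely in 388 of 406 T cells (95.6%) at 1332 CPM in gray matter 2, 1402 in white matter 1 and 1435 in white matter 2. In NK cells, which the rule chose partly by Nkg7, it lay between 1310 and 2172. The share of oligodendrocytes with a UMI of Nkg7 was 0.816% in wild type, and in white matter 1 it was 3.24%, the highest share of any member in oligodendrocytes of any library.

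Ifng and Fasl were found in both cell types. Ifng, the cytokine interferon-γ that activates macrophages and microglia, reached 50.7, 38.2 and 37.2 CPM in T cells of gray matter 2, white matter 1 and white matter 2. In NK cells it reached 83.9 in gray matter 1, followed by 28.1, 139 and 49.4 in the 3 white matter libraries, a range that held all 3 T-cell values. A UMI of Ifng was present in 21.7% of T cells and 18.1% of NK cells (13.9% and 14% at the thinned depth). Fasl, the ligand of the death receptor Fas, reached 64.5, 53 and 92.2 CPM in T cells and 117, 102, 101 and 80.3 in NK cells, with a UMI in 45.6% and 42.2% of them (30.3% and 31.4% at the thinned depth). The T-cell values of gray matter 2 and white matter 1 lay below all NK-cell values of Fasl, and that of white matter 2 lay within their range.

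Pdcd1, which encodes PD-1, was found in a larger share of T cells than of NK cells. In T cells it reached 64.5 CPM in gray matter 2, 55.1 in white matter 1 and 41.3 in white matter 2, and the 3 T cells of gray matter 1 held 5 UMIs. In NK cells it reached 58.7 in gray matter 1, from 7 UMIs, and 21.6, 16.8 and 20.6 in white matter. The white matter libraries of the 2 cell types did not overlap, whereas the gray matter NK value lay inside the T-cell range. A UMI was present in 25.6% of T cells and 10.6% of NK cells, or 16% and 8.37% at the thinned depth.

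The residency genes differed among themselves in how widely they were carried. Cxcr6 was present in 362 of 406 T cells (89.2%) at 429, 331 and 464 CPM in gray matter 2, white matter 1 and white matter 2, and in 70.9% of NK cells at 302, 389, 265 and 402. Cd69, an early activation antigen that also holds cells in tissue by blocking the egress receptor S1PR1, reached 336, 182 and 207 in T cells and 151, 143, 92.4 and 49.4 in NK cells, with a UMI in 57.9% and 31.2% of them. The T-cell libraries lay above the NK libraries for Cd69 and overlapped them for Cxcr6. Itgae was the rarest of the 3, at 9.22, 14.8 and 56.4 CPM in T cells and 0, 10.8, 4.2 and 14.4 in NK cells, with a UMI in 18.2% and 4.02% of them. White matter 2 held 153 of the 162 T-cell UMIs of Itgae, and without it the share of T cells with a UMI was 8.97%.

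**Figure D1:**
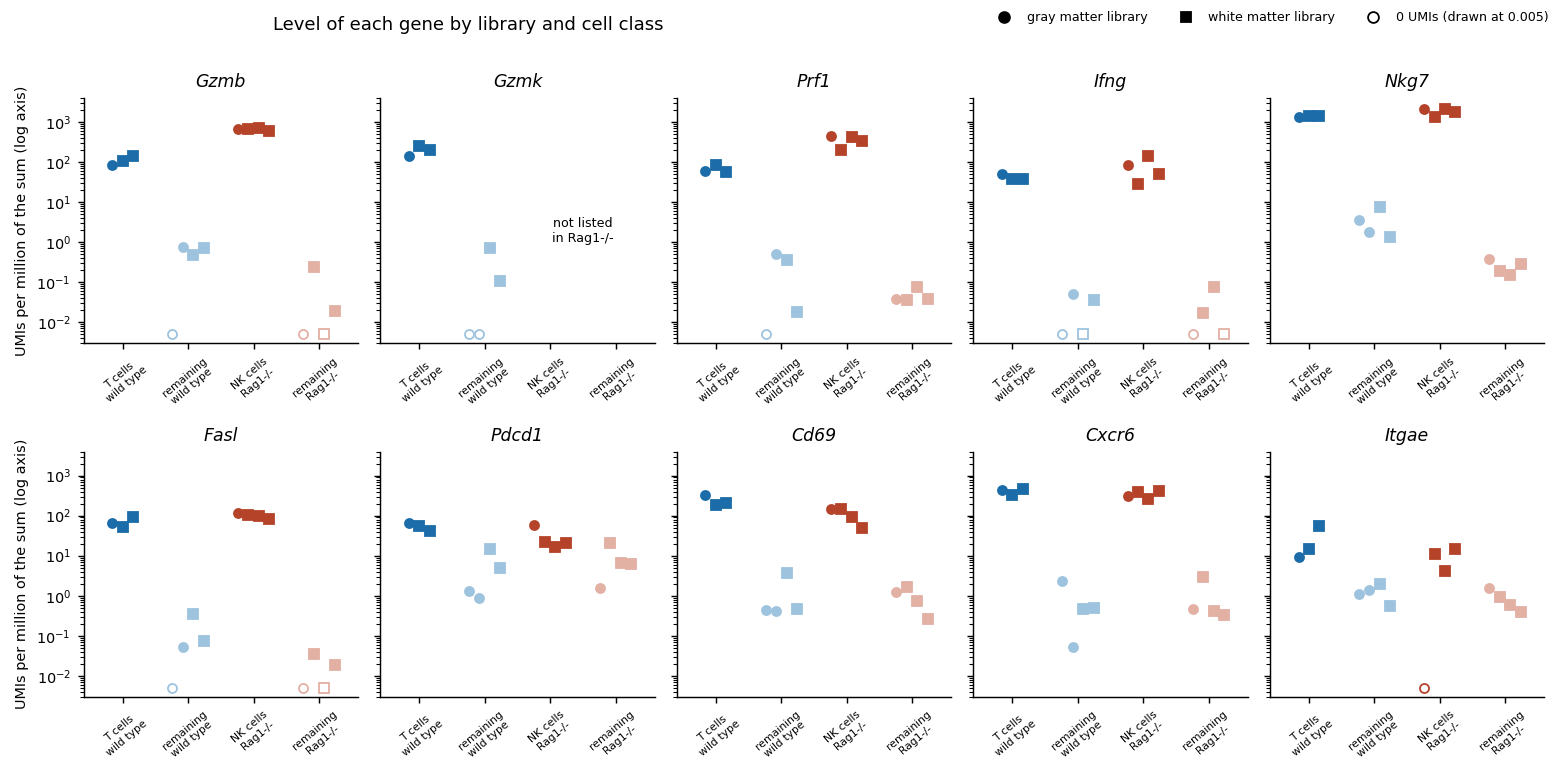
Level of each gene in CPM of the summed cells (log axis) in T cells and remaining cells of wild type and in NK cells and remaining cells of Rag1-/-. Each point is 1 library (circles gray matter, squares white matter, open symbols 0 UMIs, sums under 10 cells left out). Gzmb in NK cells lies between 612 and 718 and in T cells between 82.9 and 142, whereas the remaining cells of Rag1-/- white matter 1 lie level with white matter NK cells for Pdcd1.

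The UMIs of most members lay in the gated cells, and those of Pdcd1 and Itgae lay partly elsewhere. T cells held 88.8% to 98.3% of all wild-type UMIs of Gzmb, Gzmk, Prf1, Ifng, Nkg7, Fasl, Cd69 and Cxcr6, and NK cells held 96.4% to 98.3% of all Rag1-/- UMIs of Gzmb, Prf1, Ifng, Nkg7 and Fasl, the share of Nkg7 being set by the NK-cell rule, which uses it. Without wild-type white matter 2 the T-cell shares ran from 77.9% (Gzmb) to 96.7% (Ifng). Within wild-type gray matter 2 they ran from 54.5% (Gzmb, 18 of 33 UMIs) to 100% (Gzmk). In wild-type gray matter 1, T cells held 2 of 13 UMIs of Cxcr6. Microglia-marked cells were defined as ungated cells with at least 3 UMIs of Cx3cr1, Tmem119, P2ry12 and Csf1r together. They also had fewer than 3 UMIs of the macrophage markers Mrc1, Pf4, Cd163 and Ms4a7 together and no oligodendrocyte label of the authors. In contrast to the members above, T cells held 27.5% of the wild-type UMIs of Pdcd1, with 62.8% in microglia-marked cells. For Itgae these shares were 66.9% and 20.7%, but 153 of its 162 T-cell UMIs lay in white matter 2, and without that library the order turned, to 15.5% in T cells and 56.9% in microglia-marked cells. Without gray matter 2 they were 75.1% and 12.2%. In Rag1-/- brain, NK cells held 1.74% of the Pdcd1 UMIs and microglia-marked cells 95.4%, and for Itgae the shares were 9.09% and 76.2%. The NK-cell share was 3.75% for Pdcd1 without Rag1-/- white matter 1 and 5.22% for Itgae without white matter 3. Cd69 was divided in Rag1-/- brain between NK cells (45.1%), microglia-marked cells (31.3%) and other cells. For Cxcr6 the NK cells held 68.9%, and 153 of the remaining UMIs lay in 22 cells that passed the T-cell rule but not the NK-cell rule.

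**Figure D2:**
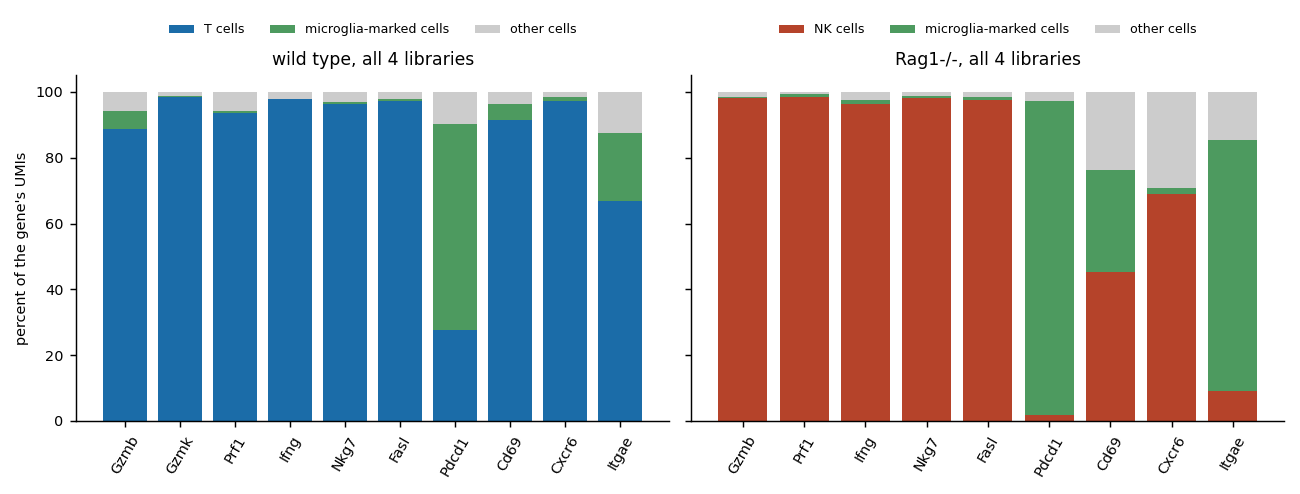
Percent of each gene's UMIs (all 4 libraries of a genotype summed) that lay in gated lymphocytes (T cells left, NK cells right), in microglia-marked cells and in other cells. Bars of Pdcd1 are mostly microglia-marked, at 62.8% in wild type and 95.4% in Rag1-/-.

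The same genes were then compared between classes within libraries, with edgeR's quasi-likelihood test on UMI sums and Benjamini-Hochberg adjustment over all genes tested. All 9 members listed in both tables were higher in T cells than in the remaining wild-type cells (3 libraries), where 16.9% of the 12986 genes tested were called higher and 27.5% lower. Ifng, for example, had 130 of its 133 wild-type UMIs in T cells. Members so scarce in the remaining cells passed the filter on low counts only through the lymphocyte sums. Their direction was thus set in advance, so the counts of members called higher, here and in NK cells, are a description only. The differences on the log2 scale ran from 3.35 for Pdcd1 (SE 0.64, adjusted p = 3.97e-04) and 4.73 for Itgae (SE 0.83, adjusted p = 1.69e-04) to 10.3 for Cxcr6 (SE 0.61, adjusted p = 1.08e-09). The other 6 lay between 7.48 (Gzmb) and 9.96 (Ifng), with a median of 8.5 over the 9 members against −0.29 over all genes, and Gzmk was 10.47 higher in the fit of wild-type libraries alone (SE 0.48). Once cells passing both rules were left out, which keeps only 20 T cells of white matter 2, Gzmb (−6.95), Itgae (−6.66) and Pdcd1 (−0.016) turned and the call of Prf1 was lost (7.66, adjusted p = 0.0679). In NK cells against the remaining Rag1-/- cells, 7 of 8 tested members were higher, against 15.3% of genes called higher and 27.9% lower. These ran from 3.66 for Itgae (SE 0.90, adjusted p = 0.00335, and 0.0787 without Rag1-/- white matter 3) to 12.84 for Gzmb (SE 0.48, adjusted p = 2.75e-12). Pdcd1 was the exception at 1.55 (SE 0.74, adjusted p = 0.101), but it passed in 8 of 17 alternatives, among them DESeq2 (1.94, adjusted p = 0.0477) and the Rag1-/- libraries fitted alone (1.58, SE 0.57, adjusted p = 0.0289).

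The 2 kinds of lymphocyte were next set against each other in white matter. T cells held less Gzmb (log2 difference −2.37, SE 0.26, adjusted p = 3.36e-04) and less Prf1 (−2.20, SE 0.38, adjusted p = 0.00903) than NK cells, so 2 of 8 tested members were lower and 0 higher, where 1.96% of 7979 genes were called lower and 0.953% higher. The Prf1 call was lost without wild-type white matter 2 (−1.76, adjusted p = 0.0869). Itgae (1.89, SE 0.58, adjusted p = 0.151), Pdcd1 (1.26, SE 0.36, adjusted p = 0.118) and Cd69 (1.10, SE 0.34, adjusted p = 0.146) had higher values in T cells but did not pass. All 3 passed when gated cells with oligodendrocyte or microglia markers were left out (2.17, 1.49 and 1.36). That fit called more genes in general, with 155 of 4630 higher and 202 lower. Pdcd1 turned (−1.92) without cells that pass both rules, a fit whose only T-cell sum is 20 cells of white matter 2. The values of Ifng (−0.77, SE 0.54), Fasl (−0.27, SE 0.27) and Cxcr6 (0.22, SE 0.25) did not pass either (adjusted p = 0.677, 0.808 and 0.849). Without cells that pass both rules, Fasl read −3.14 from that single T-cell sum. Cell type, genotype and experiment cannot be told apart in this comparison.

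**Figure D3:**
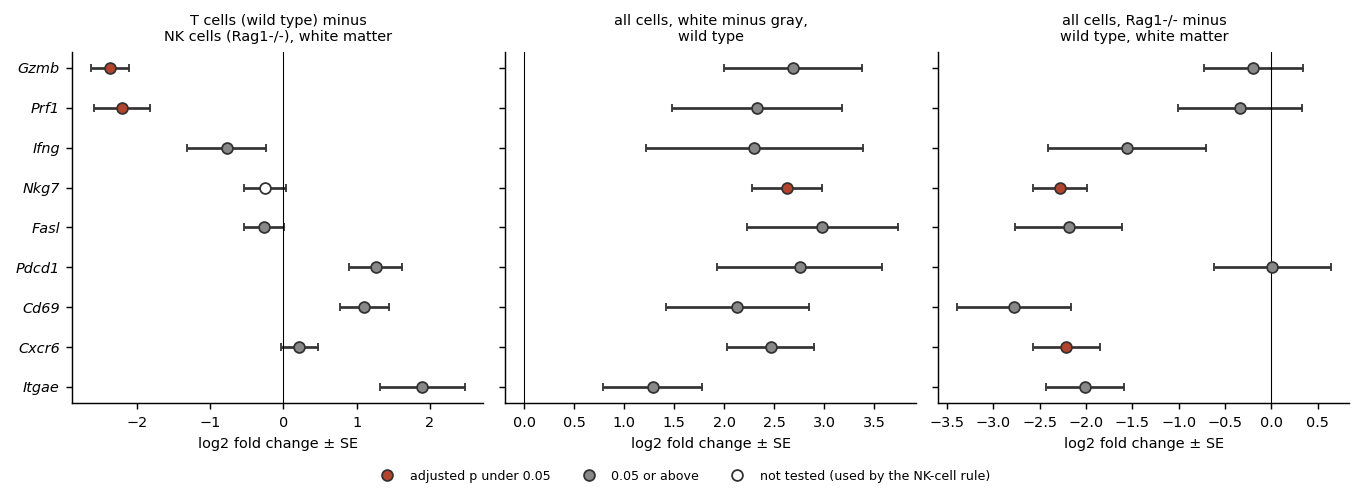
Log2 fold change (points) ± SE (bars) of 9 members in 3 comparisons of UMI sums: T cells minus NK cells of white matter, all wild-type cells of white minus gray matter, and all white matter cells of Rag1-/- minus wild type. Filled red points passed an adjusted p of 0.05: Gzmb and Prf1 in the first, Nkg7 in the second, Nkg7 and Cxcr6 in the third.

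T cells of white matter were not tested against those of gray matter, since a test was set to need at least 10 T cells in both gray matter libraries and 1 held 3. Side by side, the 23 T cells of gray matter 2 and the 328 of white matter 2, which came from the same 5 mice, differed in Itgae (9.22 against 56.4 CPM, from 2 and 153 UMIs, exact Poisson 95% intervals 1.12 to 33.3 and 47.8 to 66.1) and in Cd69 (336 against 207, from 73 and 562 UMIs, intervals 264 to 423 and 190 to 225). Gzmk was 138 in gray and 204 in white matter 2, and Cxcr6 was 429 and 464. No direction was read from these values, because each rests on 1 library and the intervals cover counting error only.

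Within the T cells, 329 held a UMI of Cd8a or Cd8b1 and not Cd4 (CD8 T cells), 50 held Cd4 alone (CD4 T cells), 2 held both and 25 neither. Cytotoxic members were found in larger shares of the CD8 T cells than of the CD4 T cells: 31.3% against 10% for Gzmb, 68.7% against 40% for Gzmk and 40.7% against 10% for Prf1. Summed over the libraries, the shares were close to each other for Ifng (21.6% and 26%), Fasl (47.1% and 40%), Pdcd1 (27.4% and 20%) and Cd69 (58.4% and 60%). By library the order could turn. In white matter 1, with 9 CD4 T cells, Cd69 read 63.2% and 22.2% and Fasl 39.5% and 11.1%. In gray matter 2, with 8 CD4 T cells, Cd69 read 46.7% and 75% and Fasl 33.3% and 75%. Itgae was almost absent from CD4 T cells, with 1 of 50 (2%) against 72 of 329 (21.9%), and Cxcr6 was found in 68% against 93.9%. These are shares over cells of the same 4 libraries and carry no test.

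Members were counted together in single T cells, and no value expected from their single shares was set beside these counts. The counts therefore show how often members met, not whether they were associated. The median T cell held UMIs of 5 of the 10 members (range 0 to 9), with 5 in CD8 and 3.5 in CD4 T cells. Over all T cells, Gzmk without Gzmb was the most frequent combination of these 2 genes, in 175 T cells (43.1%, exact Clopper-Pearson 95% interval 38.2% to 48.1%), followed by neither (122), both (73) and Gzmb without Gzmk (36). It also came first in both white matter libraries. Neither came first in gray matter 2 (10 against 7 of 23), in all 3 T cells of gray matter 1 and in CD4 T cells (29 against 16 of 50). Gzmb and Prf1 together, that is 1 of the granzymes with perforin, were found in 43 T cells (10.6%), and 93 (22.9%) held none of Gzmb, Gzmk and Prf1. Cd69 and Cxcr6 together were found in 213 T cells (52.5%), and adding Itgae left 41 (10.1%). Of those 41, 37 lay in white matter 2 (11.3% of its T cells), with 2 in white matter 1 (3.85%) and 2 in gray matter 2 (8.7%).

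Itgae was found in 34 of 109 T cells with Gzmb (31.2%, interval 22.7% to 40.8%) and in 40 of 297 without it (13.5%, interval 9.8% to 17.9%), at nearly equal median depths of 6755 and 6823 UMIs. These intervals cover the sampling of cells only, and the cells come from 4 libraries, mostly white matter 2. Within CD8 T cells the shares were 33% and 16.8%, and within white matter 2 they were 34.4% and 14.9%. Outside white matter 2 they were 12.5% (2 of 16) and 8.06% (5 of 62), so the pattern rests on that library. Prf1 was found in 41.9% of T cells with Gzmk and 25.9% of those without it. Over all T cells of a library, this order was seen in gray matter 2 (60% and 23.1%), white matter 1 (53.1% and 35%) and white matter 2 (39.3% and 25.4%). These shares mix CD8 and CD4 T cells. In gray matter 2, all 10 T cells with Gzmk and all 9 with Prf1 were among its 15 CD8 T cells, and its 8 CD4 T cells held neither. An order within CD8 T cells was thus not read for this pair, and depth was not compared. In T cells with Pdcd1, Ifng was found in 31.7% against 18.2%, and Itgae in 12.5% against 20.2%. Summed over the other 3 libraries both orders turned, to 19.2% against 21.2% for Ifng and 11.5% against 7.69% for Itgae. Itgae was found in 18.3% of T cells with Cd69, the other residency marker, and in 18.1% of those without it.

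**Figure D4:**
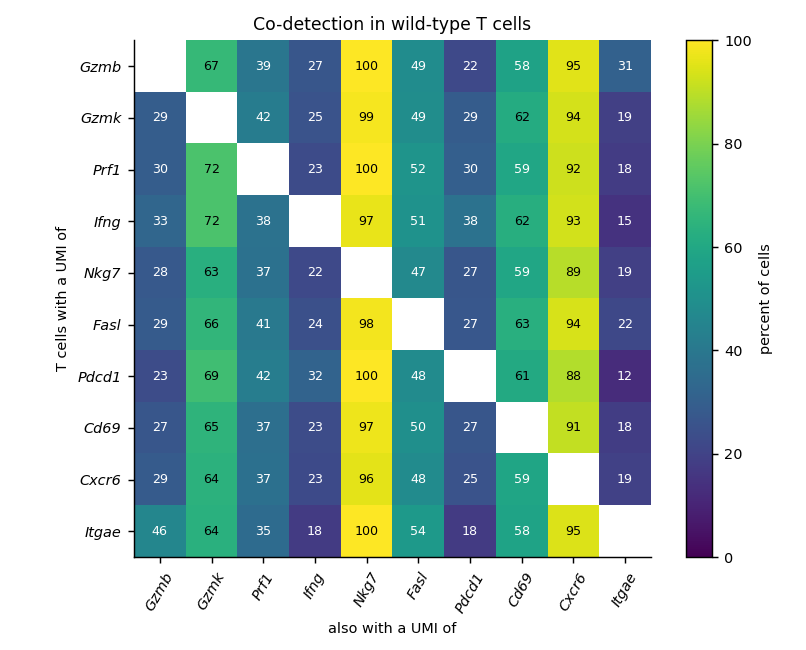
Percent of the 406 wild-type T cells with a UMI of the row gene that also had a UMI of the column gene (color scale 0 to 100). Columns of Nkg7 and Cxcr6 are high in every row, and the Itgae row reads 46 in the Gzmb column where the other rows read 23 to 33.

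Sums over all cells show how the tissue as a whole carried these genes, and in such sums fewer cells of a type and less RNA per cell cannot be told apart. In wild type, white matter libraries 1 and 2 held 81.5 and 69.2 CPM of Nkg7, above the 9.26 and 16.4 of their gray matter counterparts. It was higher in white matter by 2.62 on the log2 scale (SE 0.35, adjusted p = 0.0351), and it was the only 1 of 9 tested members called, where 0.434% of 15657 genes were called higher and 0.664% lower. The log2 differences of the other 8 lay between 1.29 (Itgae) and 2.98 (Fasl), with adjusted p values from 0.0525 (Cxcr6) to 0.327 (Ifng). Cxcr6 passed in edgeR with DESeq2's size factors (adjusted p = 0.0483) and without the filter on low counts (0.0444). DESeq2 itself called 7 members higher, with adjusted p = 1.01e-05 for Cxcr6, 4.6e-04 for Gzmb, 0.00342 for Fasl, 0.00413 for Pdcd1, 0.0331 for Cd69 and 0.0468 for Prf1 beside Nkg7, where 2.7% of all genes were called higher. With the mouse pool as a block, Nkg7, Cxcr6 (2.46, adjusted p = 0.00334), Pdcd1 (2.47, adjusted p = 0.00936), Fasl (3.06, adjusted p = 0.0418), Gzmb (2.78, adjusted p = 0.0473) and Cd69 (2.03, adjusted p = 0.048) were called higher. That fit holds the 4 wild-type libraries with 1 residual degree of freedom, and it called 1747 of 13515 genes, against 172 of 15657 without the block, with 4.48% of all genes higher. Without any 1 of the 4 wild-type libraries, which leaves 1 tissue with a single library, 0 genes were called in edgeR (1529 to 2463 had an unadjusted p under 0.05), and the Nkg7 difference stayed between 2.31 and 3.16 (adjusted p between 0.101 and 0.216). Without Rag1-/- white matter 3 it was 2.62 (adjusted p = 0.0585).

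Rag1-/- white matter carried less of some members than wild-type white matter. Nkg7 read 10.7, 18.7 and 16.7 CPM and was lower by 2.28 on the log2 scale (SE 0.29, adjusted p = 0.0156), and Cxcr6 read 6.1, 2.72 and 3.98 against 18 and 22.5 and was lower by 2.21 (SE 0.36, adjusted p = 0.0457). These were 2 of 9 tested members, where 0.307% of genes were called lower and 0.511% higher. Cd69 (−2.78, adjusted p = 0.151), Fasl (−2.19, 0.242) and Itgae (−2.01, 0.123) did not pass in edgeR. All 3 passed in DESeq2 (adjusted p = 9.11e-04, 0.0116 and 0.00678), where 1.03% of genes were called lower. Cd69 (−3.41, adjusted p = 0.0234) and Itgae (−2.37, 0.0289) also passed in edgeR without Rag1-/- white matter 1, where 0.7% were. Gzmb was at 5.46, 6.28 and 5.56 in Rag1-/- and 5.96 and 7.39 in wild type (log2 difference −0.20, SE 0.53), and Prf1 at 1.64, 3.82 and 3.14 against 4.72 and 2.72 (−0.34, SE 0.67). NK cells supplied 98.3% of both in Rag1-/- brain. Pdcd1 differed by 0.01 (SE 0.63), with Rag1-/- white matter 1 (batch 1) at 21.2 and the other 2 (batch 2) at 6.76 and 6.16. The call of Nkg7 was lost without wild-type white matter 1 (−2.12, adjusted p = 0.128), wild-type white matter 2 (−2.42, 0.0727) or Rag1-/- white matter 3 (−2.35, 0.0603), while the differences stayed close to −2.28. The call of Cxcr6 was lost without any 1 of 6 libraries, the 2 wild-type gray matter libraries included, with differences between −1.98 and −2.33 and adjusted p between 0.0783 and 0.242. It held without Rag1-/- gray matter 1 or Rag1-/- white matter 1, and was lost when the white matter libraries were fitted alone (−2.21, adjusted p = 0.0638).

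Because most Pdcd1 UMIs lay outside the lymphocytes, microglia-marked cells were compared between tissues after that was seen. PD-1 is best known as a receptor of T cells. In these cells Pdcd1 read 3.89 and 2.87 CPM in wild-type gray matter 1 and 2 and 58.7 and 37.6 in white matter 1 and 2. In Rag1-/- brain, which lacks mature T cells, it read 3.26 in gray matter 1, followed by 47.2, 32.5 and 32.6 in white matter 1, 2 and 3. All 5 white matter libraries lay above all 3 gray matter libraries. Pdcd1 was higher in white matter by 4.16 in wild type (SE 0.40, adjusted p = 0.00203) and by 3.70 in Rag1-/- (SE 0.43, adjusted p = 0.0116), and it was the only 1 of 6 tested members called in either. Gray matter of Rag1-/- is 1 library, which was assumed to vary like the libraries of the other groups. It belongs to batch 1, as does Rag1-/- white matter 1, whereas Rag1-/- white matter 2 and 3 belong to batch 2. In these comparisons 2.55% of 12887 genes were called higher and 0.691% lower in wild type, and 0.38% higher and 0.0466% lower in Rag1-/-. The difference between genotypes was −0.46 (SE 0.58, adjusted p = 1), and both calls held in all alternatives run. Those left out each library in turn, except Rag1-/- gray matter 1 for the Rag1-/- call, without which Rag1-/- has no gray matter library.

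A UMI of any of Cd3d, Cd3e, Cd3g, Cd8a, Cd8b1, Trac, Trbc1 and Trbc2 was found in 13 of 221 wild-type and 6 of 1141 Rag1-/- microglia-marked cells with Pdcd1 (5.88% and 0.526%, against 3.57% and 0.149% of those without Pdcd1), and cells without such a UMI held 325 of the 358 and 1696 of the 1703 Pdcd1 UMIs. The share differed by library: in wild-type white matter 1 it was 15.1% of cells with Pdcd1 (8 of 53) and 13% of those without, against 2.63% (4 of 152) and 2.19% in white matter 2, while in the Rag1-/- libraries it was at most 0.627% of cells with Pdcd1. Cells with Pdcd1 were deeper, with median UMIs of 11474 against 6826 in wild type and 7326 against 5750 in Rag1-/-, and single cells held up to 8 and 10 UMIs of it. Oligodendrocytes held a UMI of Pdcd1 in 0.117% of cells in both genotypes, against 14.7% and 14.5% of microglia-marked cells (8.45% and 10.4% at the thinned depth).

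The microglia clusters that the authors deposited for the Rag1-/- libraries differed in Pdcd1. In Homeostatic1 it read 2.71 CPM in gray matter 1, followed by 12.4, 2.84 and 10.4 in white matter 1, 2 and 3. In Homeostatic2 it read 40.5 in gray matter 1, from 29 cells, and 52.7, 42.2 and 50.9 in white matter. In WAM, the white matter-associated microglia, it read 19.6 in gray matter 1, from 27 cells, and 72.2, 79.6 and 61.9 in white matter. Homeostatic2 and WAM lay above Homeostatic1 in every library. Homeostatic1 held 1634 cells in gray matter 1, so the Rag1-/- gray matter sum is mostly of that cluster. Cd69 was found in 10 of 74 cells (13.5%) of IRM, the interferon-responsive microglia, and in 0.123% of Homeostatic1 cells, whereas Itgae was found in 2.03% of Homeostatic1 cells and 0.339% of WAM cells. Clusters were defined by the authors from these cells, so their differences carry no test.

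**Figure D5:**
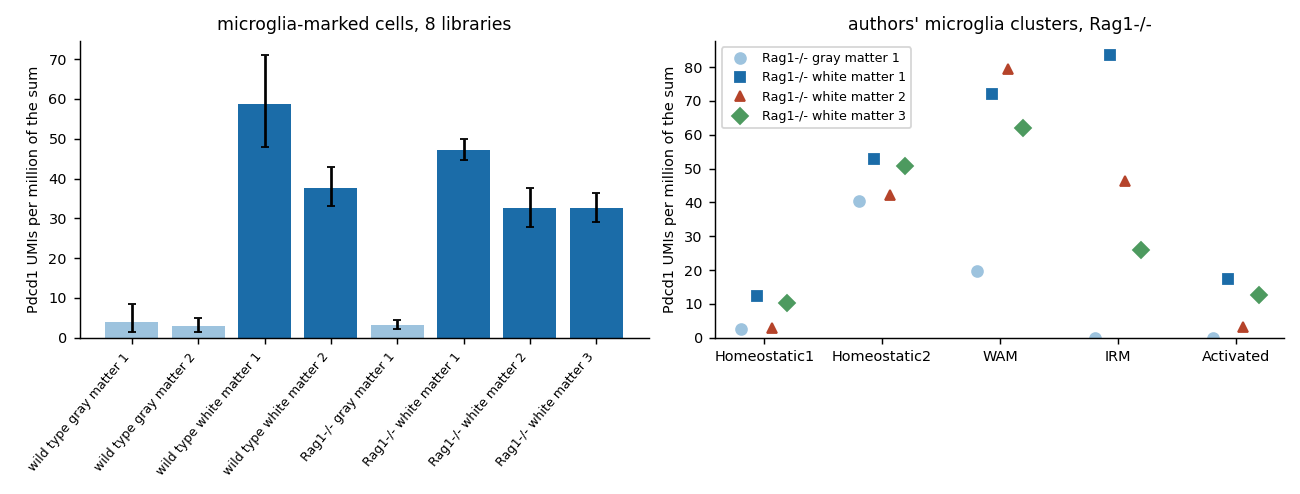
Pdcd1 in CPM of the summed cells, by library, in microglia-marked cells (left, bars with exact Poisson 95% intervals) and in the authors' microglia clusters of the Rag1-/- libraries (right, 1 point a library). The 3 gray matter bars lie between 2.87 and 3.89 and the 5 white matter bars between 32.5 and 58.7. Gray matter points of IRM, Activated, WAM and Homeostatic2 rest on 15 to 29 cells.

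Partners of the members, that is their ligands, receptors and inhibitors, were split between the lymphocytes and the cells around them. Cxcl16, the ligand of CXCR6, read 49.9 and 57.4 CPM in microglia-marked cells of wild-type gray matter 1 and 2 and 252 and 178 in white matter 1 and 2, a difference of 2.27 (SE 0.27, adjusted p = 0.00498). In Rag1-/- brain it read 56.5 in gray matter, followed by 171, 133 and 118 in white matter (1.49, SE 0.31, adjusted p = 0.107). Cd274, which encodes the PD-1 ligand PD-L1, was higher in wild-type white matter microglia-marked cells by 1.28 (SE 0.24, adjusted p = 0.0294), at 11 and 12.8 in gray and 22 and 26.3 in white matter, and did not pass in Rag1-/- (0.80, SE 0.26, adjusted p = 0.268). These were the 2 of 6 partners tested there that passed in wild type, both higher, where 2.55% of all genes were called higher and 0.691% lower. Cdh1, the E-cadherin bound by the Itgae integrin, was instead higher in the T cells themselves (8.65 against the remaining cells, SE 0.74) and in NK cells (8.66, SE 0.69). Serpinb9, which inhibits granzyme B inside the cell that makes it, was higher in T cells (3.55, SE 0.33) and NK cells (5.06, SE 0.26), and lower in T than in NK cells (−1.95, SE 0.30, adjusted p = 0.00463). Of all 8 partners, 6 were higher and 1 lower in T cells than in the remaining cells, and 5 higher and 2 lower in NK cells. Over all genes, 16.9% were higher and 27.5% lower in T cells and 15.3% and 27.9% in NK cells, so the counts of lower partners lie near the share of all genes.

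The members were then read within wider lists of the same programs. In T cells, where 16.9% of all genes were higher and 27.5% lower, 9 of 11 tested genes of the cytotoxic granule list were higher and 1 lower (Lamp1, a general lysosome protein, −1.99), among them Ctsw (8.47) and Gzma (7.93), with a list median of 3.31 against −0.29 over all genes. Effector cytokines and chemokines were higher in 9 of 10 (Xcl1 8.64, Ccl5 8.47, Lta 7.67), residency genes in 8 of 8 (Cxcr3 8.28, Runx3 7.47, Itga1 5.53), and checkpoint genes in 5 of 8 (Eomes 8.84, Cd160 8.72, Ctla4 7.59) with Havcr2 lower (−1.38). Of the recirculation list, whose genes mark cells that move between blood and lymph nodes, 4 of 6 were higher (Tcf7 7.94, Lef1 5.93) and S1pr5 was lower (−2.83). Of the 8320 remaining wild-type cells, 6003 were oligodendrocytes by the authors' labels and 1508 were microglia-marked. Higher and lower are relative to a sum mostly of such cells, so Havcr2 and S1pr5 are not thereby low among lymphocytes. In NK cells the counts of higher and lower genes were 9 and 1 of 11, 10 and 0 of 10, 8 and 0 of 8, 4 and 2 of 8, and 4 and 2 of 6 for these lists in the same order, where 15.3% of all genes were higher and 27.9% lower. The 2 lower genes of 8 and of 6 are near that share. All of these passed edgeR's quasi-likelihood test after Benjamini-Hochberg adjustment. Genes scarce in the remaining cells entered that test only through the lymphocyte sums, so the counts of higher list and partner genes are a description only.

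Between T and NK cells of white matter, 9 partner and list genes passed, 8 of them lower in T cells, where 1.96% of all genes were called lower and 0.953% higher. Gzma was lower in T cells (−6.59, SE 0.48, adjusted p = 1.83e-05), as were Serpinb6b (−2.55), a granzyme inhibitor, and Ctsw (−1.26), making 3 of 11 granule genes lower and 0 higher. Among the other lists, Ccl3 (−2.75), Xcl1 (−1.41) and Cd160 (−1.50) were lower, as were the partners Serpinb9 (−1.95) and Pdcd1lg2 (−2.04), Tcf7, a factor of memory-like T cells, was higher (2.76, SE 0.39, adjusted p = 0.00217), and no residency gene of 8 passed edgeR's test after adjustment, whereas 3 of them (Cxcr3 0.69, Bhlhe40 −0.85 and Itga1 −0.75) had an unadjusted p under 0.05, as did 11.3% of all genes, and are named after their values were seen. In microglia-marked cells, Cst7, a cystatin that is listed with the granule genes and is also a known gene of reactive microglia, was higher in white matter in wild type (3.36) and Rag1-/- (2.78). So were the chemokines Ccl3 (2.27 and 3.87) and Ccl4 (1.94 and 4.76). Of 4 tested checkpoint genes, 1 was lower in wild-type white matter (Entpd1, −0.95), where 0.691% of all genes were called lower.

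The genes whose levels ran closest to each member over 27 sums (1 per library and class, Pearson correlation of log2(CPM + 1) over 16936 genes) are given as a description. The search left out the members, the partner and list genes and the genes of the gates, so a closer gene may lie among these. Tbx21, the T-box factor T-bet, was among the 2 nearest to Gzmb (r = 0.987) and Prf1 (0.992), and to Gzmk (0.999, over 11 wild-type sums). Nkg7 ran closest to Gimap4 (0.995), Fasl to Samd3 (0.997), Cxcr6 to Zap70 (0.987), Cd69 to Crybg1 (0.981) and Ifng to Pglyrp2 (0.988). Pdcd1 ran closest to the ribosomal protein gene Rpl10a (0.956) and Itgae to Gm20234 (0.903), the lowest of the 10. The sums share libraries, so no p is given.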

How the data were processed

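Single cells were sequenced with droplet 3′ chemistry, and the unit analysed was the UMI count per gene and cell, as deposited by the authors in 1 table of wild-type and 1 of Rag1-/- cells, in which they had kept cells with at least 200 genes and at most 10% mitochondrial reads and genes in at least 3 cells. Reads had been aligned to mm10 with Cell Ranger 3.0.2, 4.0.0 or 6.1.2, by batch. The columns of 4 samples of other work were not used. Cells were gated at 3 UMIs as described, and UMI counts were summed per library and class where a class held at least 10 cells.

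Sums were tested with edgeR 4.0.16 (quasi-likelihood test, TMM scaling, filterByExpr) in R 4.3.3, with Benjamini-Hochberg adjustment over all genes tested and a threshold of 0.05. T or NK cells against remaining cells were fitted with the library as a block, T against NK cells over their own sums, and all cells and microglia-marked cells with 4 groups of genotype and tissue. Libraries are pools or single mice, so p-values measure the spread between libraries. Genes used by a gate were not tested where that gate defined the comparison. Wild-type gray and white matter libraries of 1 number came from the same mice. Their deviations from the group means correlated at r = 0.29 over 15657 genes in all cells and −0.072 over 12887 in microglia-marked cells, and a fit with the pool as a block was run beside the main one. Shares were compared by exact permutation or given with exact Clopper-Pearson intervals, and were also computed after thinning to 4049 UMIs. Alternatives were DESeq2 1.42.0, its size factors, no filter, other gates (2 and 5 UMIs), mixed cells left out and each library left out. The fitting code was run on simulated counts for T cells against remaining cells, T against NK cells, and all wild-type cells of white against gray matter. The microglia-marked fit was not among these. The microglia-marked comparisons were added after seeing the data, and the members and lists were chosen with earlier results of these data known. Promoters and motif letters were read from the RefSeq table. Genes named from the lists were among those with the largest called difference in each direction, beside the members and their partners. Called list genes of NK cells against remaining cells and of the sums over all cells are not named. The residency genes named between T and NK cells were not called.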

Additional observations from a re-analysis of the deposited data

Results flagged for a closer look

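In Rag1-/- brain, 22 cells passed the T-cell rule but not the NK-cell rule, and they were compared with no other cells as a group. They are counted among the remaining Rag1-/- cells and in the sums over all cells. White matter 1, of batch 1, held 19 of them. Cxcr6 was found in all 22 (153 UMIs) and Cd69 in 11 (38 UMIs), whereas Pdcd1 was found in 5, Gzmb in 1 (13 UMIs) and Nkg7 in 1, and no UMI of Prf1, Ifng, Fasl or Itgae was seen. The cells also held Il7r, Il18r1 and Trbc2 in all 22, Ltb in 20, Cd163l1 in 19, Tcf7 in 18 and Trdc in 12, whereas Trac was found in 1 and Cd8b1 and Cd4 in 0. What these cells are was not tested.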

How the results depend on the processing

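Counts of called genes moved by over 1.5 times as follows. T cells against remaining cells called 5768 genes, and 751 once cells passing both rules were left out, which leaves 20 T cells of white matter 2 as the only T-cell sum. T against NK cells called 232, with 134 by DESeq2, 498 without the filter, 357 without mixed cells, 440 without cells passing both rules and 152 to 230 with 1 library left out. All wild-type cells of white against gray matter called 172, with 1162 by DESeq2, 1747 with the mouse pool as a block and 0 to 1242 with 1 library left out, the 0 arising without any 1 of the 4 wild-type libraries. Rag1-/- against wild type called 128, with 536 by DESeq2 and 64 to 438. Microglia-marked cells called 418 in wild type, with 819 by DESeq2, 96 with the block and 78 to 415, and 55 in Rag1-/-, with 343 by DESeq2 and 106 without the filter.

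Directions of members turned as follows. Leaving out cells that pass both rules removes most T cells with Nkg7 by construction and leaves that 1 sum, and T cells against remaining cells then gave −6.95 for Gzmb, −0.016 for Pdcd1 and −6.66 for Itgae, and T against NK cells −1.92 for Pdcd1. Nkg7 in T against NK cells, a value with no test since the NK rule uses it, was 0.015 without mixed cells. In Rag1-/- against wild type, Pdcd1 was −0.011 by DESeq2 and between −0.81 and 0.84 with 1 library left out, and Prf1 lay between −0.74 and 0.12. In microglia-marked cells, Nkg7 in wild type was 0.70 with the block and between −1.60 and 7.62 with 1 library left out, and Cd69 in Rag1-/- lay between −0.34 and 0.094. The differences in shares lay between −1.92 and 18.6 points for Ifng by Pdcd1, −7.37 and 5.24 for Pdcd1 by Gzmb, and −0.79 and 5.91 for Itgae by Cd69. The cause was not tested. Over the differences, shares and co-detection of single members, 867 further values were unchanged. Unchanged differences kept their direction and side of the threshold, and unchanged shares and co-detection values stayed inside the interval of the main value. A further 25 shares or co-detection values lay outside it, and 18 differences lost and 35 gained a call. White against gray matter within T cells was not tested, and no alternative or paired fit of it was run.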
